A study of Mus musculus with 27 samples.

Results

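Neutrophils sorted from tumour-bearing lung were compared with neutrophils sorted from wild-type (WT) lung by RNA sequencing. The comparison rested on 6 of the 27 libraries of the series, chosen by their labels: 3 libraries of CD11b+Ly6G+ cells from tumour lung and 3 of CD11b+Ly6G+ cells from WT lung. The other libraries held macrophages, monocytes, epithelial cells and unsorted lung cells of both kinds of lung, in 10 groups in all. Every mouse was C57BL/6. Tumour mice had received HKP1 cells, a cultured mouse lung cancer line, through a tail vein, and their lungs were taken between day 20 and day 25 of tumour growth. WT lungs carried the label of no tumour. Tumours of this kind come from a line seeded through the blood and did not arise in the lung. Ages and sexes of the mice, and which libraries came from separate animals, were not given in the sources used here, so p-values measure the spread between libraries.

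Neutrophils are short-lived white blood cells that are made in the bone marrow and load their granules in a fixed order as they mature: primary granules first, then secondary and gelatinase granules, and last the secretory vesicles. They leave the marrow under the receptors Cxcr2 and Cxcr4, enter tissue through integrins, kill microbes with granule proteins and an NADPH oxidase, and release cytokines, chemokines and lipid mediators. In tumours they can live longer and take on other programmes, some of which favour tumour growth. The design asked how their transcripts differed between tumour lung and healthy lung.

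Values are FPKM, fragments per kilobase of transcript scaled to the number of fragments mapped, so that levels of genes can be set side by side per unit of length. They are given throughout in the order tumour replicates 6, 7 and 8 and WT replicates 5, 6 and 7. A log2 change is tumour minus WT on the log2(FPKM + 1) scale, which understates the change of low genes. A gene was called where limma gave an adjusted p under 0.05 over the 9349 genes that reached 1 FPKM in 2 or more of the 6 libraries. Another 6675 of the 16024 genes in the table did not reach that level.

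The libraries carried neutrophil transcripts. Itgam, the CD11b chain used in the sort, lay at 319, 397 and 321 FPKM in tumour and 343, 361 and 344 FPKM in WT libraries, with overlapping groups (log2 change -0.02, adjusted p = 0.88). S100a8, a subunit of the abundant neutrophil protein calprotectin, lay at 10342, 9547 and 11008 FPKM in tumour and 24368, 21819.5 and 22193 FPKM in WT libraries, and Csf3r, the receptor for the growth factor G-CSF, at 1321, 966 and 1163 and 1724, 2059 and 1638 FPKM. Both were lower in every tumour library, by 1.15 (adjusted p = 0.00067) and 0.66 (adjusted p = 0.0077). Of 15 neutrophil markers measured, S100a9, Il1r2 and Hdc were listed at 0 in all WT libraries. The other 12 summed to 16654 to 18276 FPKM in tumour and 33867 to 36368 FPKM in WT libraries, lower in every tumour library. S100a8 made up most of each sum. Csf3r, Retnlg, Trem1 and Mmp8 were also lower in every tumour library, and Clec4e was higher. Itgam, Cxcr2, Mmp9, G0s2, Fpr1 and Fpr2 overlapped between the groups. Ly6g, the other marker of the sort, was not analysed here, because the table pairs each mouse symbol with a human one. Tumour replicates correlated with each other at 0.985 to 0.994 and WT replicates at 0.985 to 0.988, against 0.892 to 0.907 between the groups (log2 scale, across genes). Between 8560 and 8920 genes reached 1 FPKM in each library. The spacing of the lowest values put the depth of the tumour libraries at 1.28 to 1.41 times that of WT replicate 5, as a rough figure.

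For some abundant genes the table gives 0 for all 3 libraries of 1 group, and no direction was read from them. S100a9, Il1r2 and Hdc were listed at 0 in WT libraries and averaged 15799, 4347 and 1732 FPKM in tumour libraries. Il1b, Ccrl2 and Plek were listed at 0 in tumour libraries and averaged 6902, 2030 and 1965 FPKM in WT libraries. Rbp2 and Pla2g1b, both low, were listed the same way. Of the 9349 genes tested, 3115 were higher in tumour neutrophils (33.3%) and 2409 were lower (25.8%), together 59.1%. The groups did not overlap for 6200 genes (66.3%). A called rise of at least 1 on the log2 scale was seen for 725 genes (7.75%) and a called fall of that size for 857 genes (9.17%). The median change over all genes tested was 0.11. In sorted bulk libraries, fewer cells expressing a gene and less of its RNA per cell cannot be told apart.

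The largest rises, chosen among called genes whose groups did not overlap, included a lipid mediator enzyme and cytokines. Ltc4s encodes leukotriene C4 synthase, the enzyme that joins glutathione to leukotriene A4. It lay at 131, 174 and 130.2 FPKM in tumour libraries and at 1.66, 2.17 and 3.39 FPKM in WT libraries. Its log2 change was 5.44 (SE 0.19, adjusted p = 4.7e-07). It lies on the reverse strand of chromosome 11 (GRCm38, chr11:50236461-50238616). Il23a, the p19 chain of interleukin-23 (chr10:128296139-128298752, reverse strand), lay at 456, 406 and 500.2 FPKM in tumour and 12.3, 9.17 and 9.01 FPKM in WT libraries, a rise of 5.36 (SE 0.14, adjusted p = 6.2e-08). Rcan1, a calcineurin inhibitor that is itself induced by calcineurin signalling (chr16:92391953-92470867, reverse strand), lay at 247, 198 and 226 against 7.15, 5.96 and 7.69 FPKM and rose by 4.82 (SE 0.13, adjusted p = 6.2e-08). Tnf, encoding tumour necrosis factor (chr17:35199381-35202007, reverse strand), lay at 2602, 1776 and 2002 against 106, 111 and 128 FPKM and rose by 4.18 (SE 0.16, adjusted p = 7.9e-07). Il1a, encoding interleukin-1 alpha (chr2:129299610-129309972, reverse strand), lay at 1889, 1737 and 2034 against 111, 98.7 and 111 FPKM and rose by 4.13 (SE 0.12, adjusted p = 9.9e-08). In tumour lung, the neutrophil means of these 5 genes were 433%, 3160%, 340%, 147% and 314% of the macrophage means, so that tumour macrophage libraries held less of each.

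Lysosomal and membrane proteins were also among the largest rises. Acp5, the tartrate-resistant acid phosphatase, lay at 266, 207 and 191 FPKM in tumour and 11.1, 9.88 and 13.8 FPKM in WT libraries. Ms4a6d, a membrane protein of the MS4A family, lay at 36.4, 44.1 and 47.4 against 0.217, 0.497 and 0.526 FPKM. Rgs10, which shortens G protein signalling, lay at 70.9, 69.0 and 66.1 against 2.74, 2.70 and 5.78 FPKM. The rises of these 3 genes, also chosen for groups without overlap, were 4.14, 4.95 and 3.94 on the log2 scale (adjusted p = 7.9e-07, 9.9e-08 and 5.6e-06). Their tumour neutrophil means were 34.4%, 25.0% and 50.4% of the tumour macrophage means. Of the 18 monocyte and macrophage markers, Apoe was listed at 0 in tumour macrophages. The other 17 stood at 0.867% (Mertk) to 46.8% (Emr1) of the tumour macrophage mean, with a median of 2.44%, and 15 of them were under 10%. Csf1r, at 27.6%, was the other marker above that level. The part of macrophage RNA in the 3 rises was not tested.

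Among the remaining genes of the largest rises, Ffar2, a receptor for short-chain fatty acids, lay at 29.7, 19.2 and 30.9 FPKM in tumour and 0.170, 0.879 and 0.470 FPKM in WT libraries, a rise of 4.19 (adjusted p = 4.9e-06). Adamdec1, a secreted metalloprotease, rose by 4.05 to 22.1 ± 8.53 FPKM (SD, n = 3) from 0.336 ± 0.139 FPKM. Gpr171, an orphan-family receptor, rose by 3.99 to 45.4 ± 10.8 FPKM. B4galt1, a galactosyltransferase of the Golgi, lay at 104, 120.4 and 122 against 8.23, 7.67 and 7.79 FPKM and rose by 3.71. Mrpl52, a protein of the mitochondrial ribosome, rose by 3.88 to 252 ± 53.3 FPKM from 16.1 ± 3.67 FPKM. Adjusted p for these 4 was 8e-06, 3.7e-06, 9.9e-08 and 3.7e-06.

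**Figure D1:**
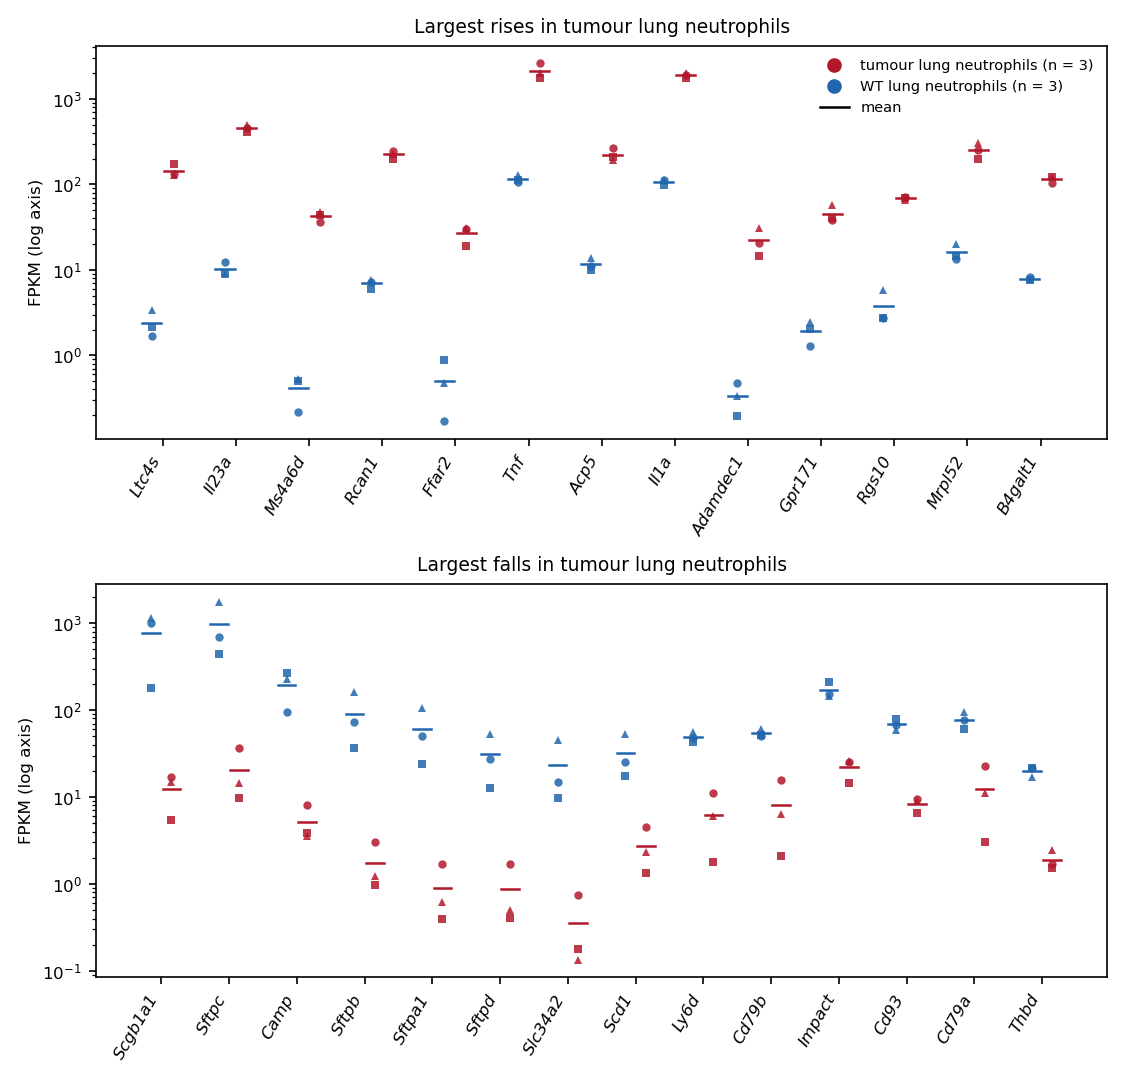
FPKM (log axis) of 13 genes with the largest rises and the 14 with the largest falls, in tumour (red) and WT (blue) neutrophil libraries. Circles, squares and triangles are tumour replicates 6, 7 and 8 or WT replicates 5, 6 and 7, and bars are means of 3 libraries. The tumour and WT points of each gene do not overlap, since the genes were chosen so.

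The largest falls were of another kind. Of the 14, Scgb1a1, Sftpc, Sftpb, Sftpa1, Sftpd, Slc34a2 and Scd1 are known from secretory and alveolar lung epithelium, and Ly6d, Cd79a and Cd79b from B cells. Sftpc, the surfactant protein C of alveolar type II cells, lay at 36.5, 9.63 and 14.7 FPKM in tumour and 699, 441 and 1764 FPKM in WT libraries. Scgb1a1, the club cell secretory protein, lay at 17.0, 5.44 and 14.8 against 1012, 179 and 1142 FPKM. WT replicate 6 was lowest of the WT libraries for both. Cd79a, a chain of the B cell receptor complex, lay at 22.7, 3.01 and 11.1 against 76.5, 61.0 and 95.3 FPKM, and tumour replicate 7 was lowest. On the log2 scale Sftpc fell by 5.47, Scgb1a1 fell by 5.60 and Cd79a fell by 2.89 (adjusted p = 8.7e-05, 0.0002 and 0.0017). The 10 alveolar type II markers measured summed to 59.8 to 91.1 FPKM in tumour and 625 to 2264 FPKM in WT libraries, and none was at 0 in all 6. The 7 club and ciliated cell markers summed to 9.15 to 21.5 and 192 to 1200.4 FPKM, and the 11 B cell markers to 14.9 to 82.0 and 220.2 to 316 FPKM. These sums hold the falling genes themselves: Sftpc and Scgb1a1 make up most of the first 2 in WT libraries. The B cell sum holds Cd79a and Cd79b, so the sums are not separate from these falls. The part of such cells in each fall was not tested. Of the other 4 genes, Camp is a granule gene described below, Cd93 and Thbd are also known from endothelium, and Impact encodes a regulator of translation. Impact lay at 25.4, 14.3 and 26.3 against 152, 209 and 146 FPKM, Cd93 at 9.45, 6.50 and 9.11 against 68.2, 79.1 and 59.3 FPKM and Thbd, thrombomodulin, at 1.67, 1.53 and 2.44 against 21.3, 21.7 and 16.9 FPKM. The 16 endothelial markers summed to 21.7 to 37.8 FPKM in tumour and 105 to 127 FPKM in WT libraries, and their part in the fall of Cd93 and Thbd was not tested. Sums of alveolar type I, fibroblast, T cell, NK cell, dendritic cell, eosinophil, and mast cell and basophil markers were also lower in every tumour library.

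**Figure D2:**
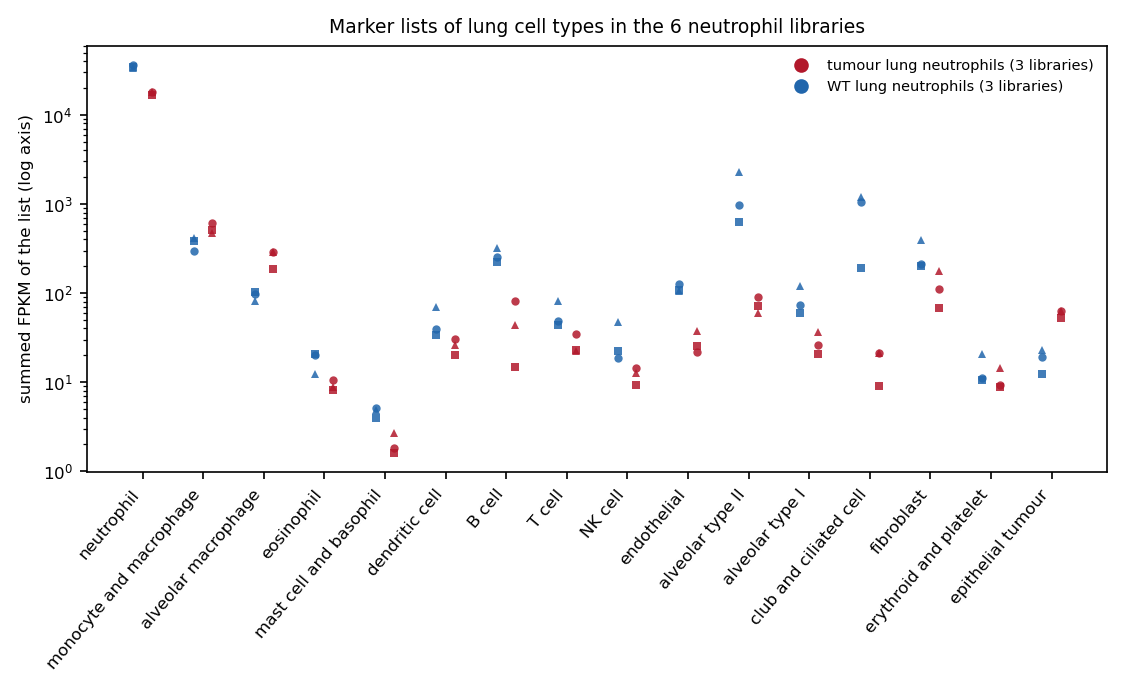
Summed FPKM (log axis) of the marker list of each lung cell type in the 6 neutrophil libraries, with tumour libraries in red and WT libraries in blue; circles, squares and triangles are replicates 6, 7 and 8 or 5, 6 and 7. Genes listed at 0 in a whole neutrophil group are left out of the sums. Neutrophil markers lie at 16654 FPKM or more in every library, and lower in tumour libraries. Alveolar type I and type II, club and ciliated cell, endothelial and fibroblast markers also lie lower there. So do B cell, T cell, NK cell, dendritic cell, eosinophil, and mast cell and basophil markers. Both macrophage lists and epithelial tumour markers lie higher in tumour libraries, and erythroid and platelet markers overlap.

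Chemokine ligands are secreted proteins that call in other leukocytes. Of 17 tested, 10 were higher, 0 were lower and 7 were not called, with a median change of 0.91. Over all genes tested, 33.3% were higher and 25.8% lower, with a median of 0.11. Limma put 1 ligand lower when tumour replicate 6 or WT replicate 5 was left out. Ccl3, which draws monocytes and T cells, lay at 8455, 6292 and 7067 FPKM in tumour and 1144, 1461 and 1012 FPKM in WT libraries, a rise of 2.60 (SE 0.19, adjusted p = 2e-05). Ccl4, its close relative, lay at 2389.7, 1014 and 1646 against 469, 551 and 442 FPKM and rose by 1.71 (adjusted p = 0.00089). Cxcl10, which binds Cxcr3 on T and NK cells and is often induced by interferon, lay at 114, 61.8 and 108 against 13.4, 10.5 and 9.33 FPKM and rose by 2.95 (adjusted p = 2.7e-05). Cxcl1, a ligand of the neutrophils' own receptor Cxcr2, lay at 191, 323 and 280.0 against 66.5, 51.1 and 41.1 FPKM and rose by 2.29 (adjusted p = 7.9e-05). Ccl2, the main ligand for inflammatory monocytes, lay at 16.4, 14.7 and 15.3 against 3.84, 3.74 and 7.14 FPKM and rose by 1.53 (adjusted p = 0.00033). Its tumour neutrophil mean was 9.97% of the tumour macrophage mean, and the part of macrophage RNA was not tested. Tumour replicate 7 was the lowest tumour library for Ccl3, Ccl4, Cxcl10 and Ccl2 and the highest for Cxcl1. Cxcl3, another Cxcr2 ligand, overlapped between the groups at 578 ± 32.3 and 458 ± 125 FPKM (adjusted p = 0.12), as did the T cell chemokine Ccl5 at 15.6 ± 6.07 and 23.8 ± 10.3 FPKM (adjusted p = 0.14).

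Cytokines went both ways. Of 24 tested, 7 were higher and 9 were lower (median -0.04), against 33.3% and 25.8% over all genes tested. Without Il1b, which was listed at 0 in tumour libraries, 8 were lower. Beside Il23a, Tnf and Il1a, Csf1, the growth factor of macrophages, lay at 779, 449 and 518 FPKM in tumour and 172, 158 and 131 FPKM in WT libraries and rose by 1.88 (SE 0.21, adjusted p = 0.00013). Its tumour neutrophil mean was 2240% of the tumour macrophage mean. Tgfb1, transforming growth factor beta 1, lay at 120.2, 45.4 and 95.4 against 35.1, 36.9 and 34.8 FPKM and rose by 1.16 (adjusted p = 0.0091), with tumour replicate 7 nearest the WT level. Inhba, a chain of activin A, rose by 0.99 to 36.9 ± 7.94 FPKM, and Il1rn, the interleukin-1 receptor antagonist, by 0.62 to 1942 ± 246 FPKM (adjusted p = 0.003 and 0.0081). Il15, which supports NK cells and memory T cells, lay at 27.7, 11.6 and 40.3 against 125, 135 and 92.7 FPKM and fell by 2.25 (SE 0.37, adjusted p = 0.001). Csf3, the gene for G-CSF, lay at 8.93, 10.2 and 10.7 against 30.6, 34.7 and 20.3 FPKM and fell by 1.40 (adjusted p = 0.00034). Tnfsf14, also called LIGHT, fell by 1.16 and Il18 by 1.13 (adjusted p = 0.00067 and 0.0035). Osm, oncostatin M, was abundant at 469 ± 149.9 and 481 ± 91.9 FPKM and overlapped between the groups (adjusted p = 0.82), and Il6 and Il10 also were not called (adjusted p = 0.98 and 0.12).

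**Figure D3:**
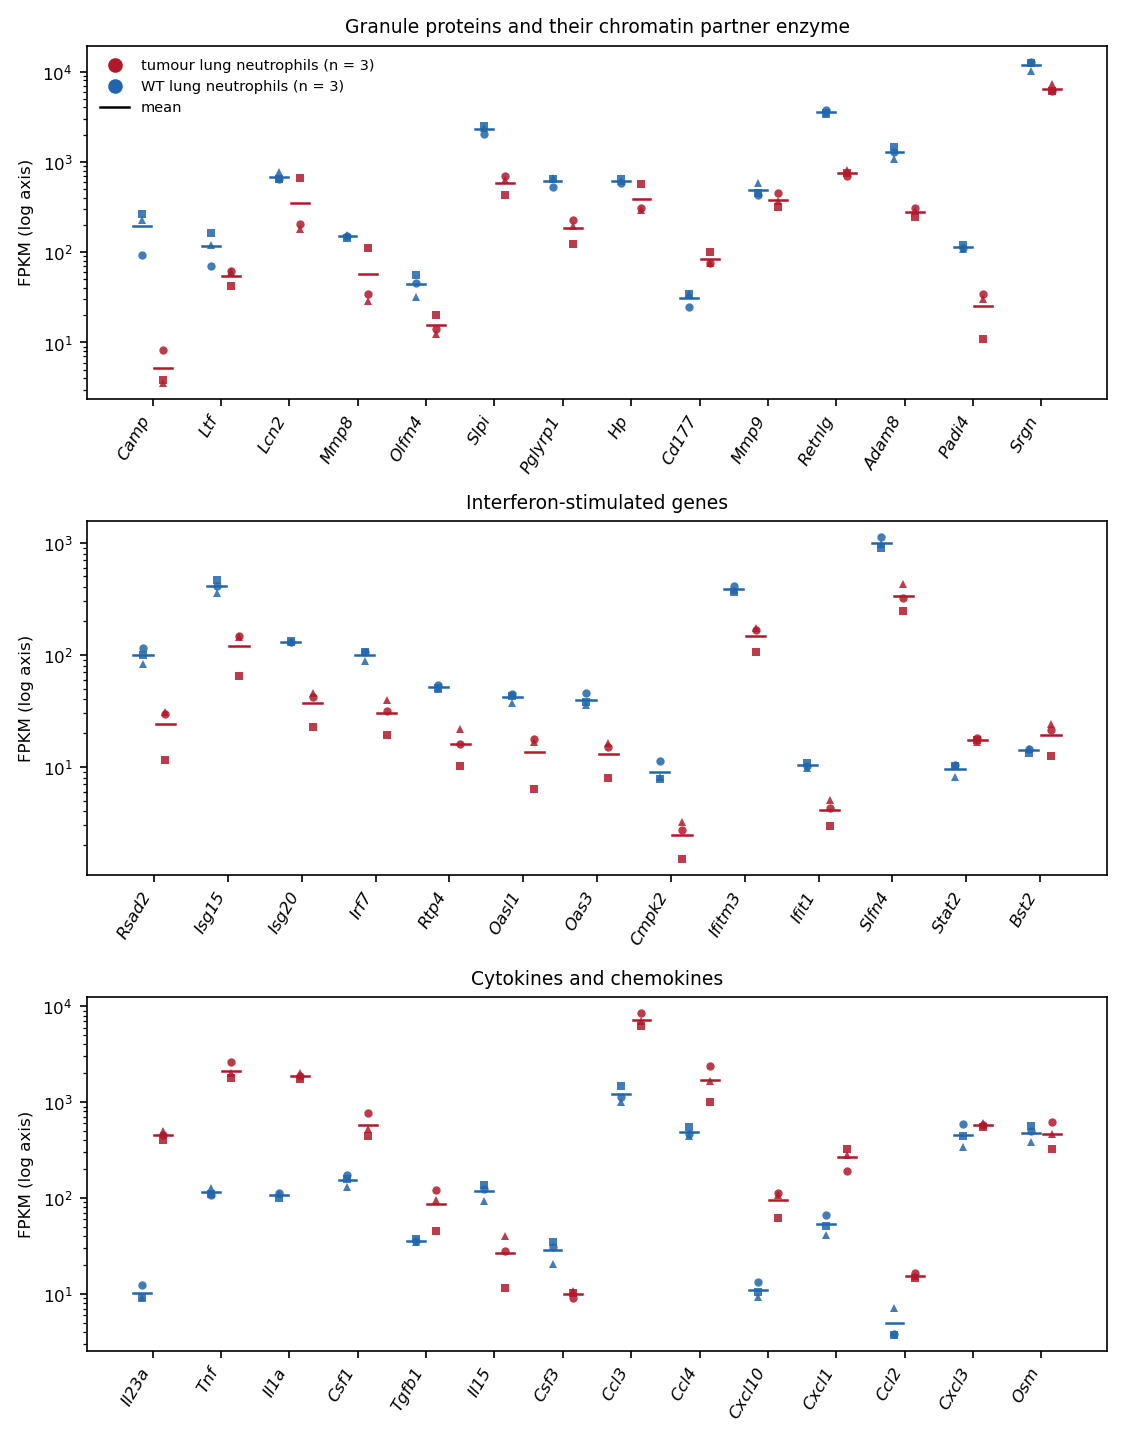
FPKM (log axis) of granule genes, interferon-stimulated genes and cytokine and chemokine genes by library; tumour libraries are red, WT libraries blue, symbols are replicates 6, 7 and 8 or 5, 6 and 7 in order, and bars are means. Camp, Slpi, Padi4 and most interferon-stimulated genes lie lower in tumour libraries, Il23a, Tnf, Il1a and Ccl3 lie higher, and tumour replicate 7 (red squares) stands apart for Lcn2, Mmp8 and most interferon-stimulated genes.

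The receptors for these signals were more often lower than higher. Among 24 cytokine receptors, 3 were higher and 10 lower (median -0.18), against 33.3% and 25.8% over all genes tested. Of the 3, 1 was Il1r2, which was listed at 0 in WT libraries. Tnfrsf1a, a receptor for tumour necrosis factor, lay at 137, 137 and 138 FPKM in tumour and 307, 317 and 277 FPKM in WT libraries and fell by 1.12 (SE 0.11, adjusted p = 6.8e-05). Il1rap, the chain shared by interleukin-1 receptors, lay at 46.6, 50.05 and 57.6 against 119, 118 and 100.4 FPKM and fell by 1.11 (adjusted p = 0.00014). Ifngr1, the ligand-binding chain of the interferon gamma receptor, lay at 62.7, 67.2 and 66.8 against 105, 119 and 109 FPKM and fell by 0.75 (adjusted p = 0.00043). The transforming growth factor beta receptors went opposite ways: Tgfbr1 rose by 0.87 and Tgfbr2 fell by 0.64 (adjusted p = 0.00067 and 0.0018). Among 16 chemokine and chemoattractant receptors, 1 was higher and 8 were lower (median -0.39), or 7 of 15 without Ccrl2. Ltb4r1, the receptor for leukotriene B4, was the one that rose, at 36.4, 23.9 and 31.4 against 14.1, 17.1 and 18.2 FPKM (log2 change 0.84, adjusted p = 0.0026). Ccr1, a receptor for Ccl3, lay at 499, 509.9 and 517 against 871, 983 and 824 FPKM and fell by 0.81 (adjusted p = 0.00063), a call that was lost when all 10 groups were fitted together (adjusted p = 0.0812). Cxcr2 overlapped between the groups at 99.5, 115 and 90.3 and 125, 123 and 101.1 FPKM (adjusted p = 0.23). Ccr7 and Cxcr5, both known from lymphocytes, fell by 2.41 and 1.29 (adjusted p = 0.00048 and 0.0034); the B cell marker sums given above fell with them, and the part of B cells was not tested.

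Enzymes of eicosanoid synthesis, which turn arachidonic acid into prostaglandins and leukotrienes, went both ways. Of 19 tested, 8 were higher and 5 lower (median 0.26), against 33.3% and 25.8% over all genes tested. Without WT replicate 6, 3 were lower. Both cyclooxygenases rose. Ptgs1 lay at 43.3, 42.9 and 40.2 FPKM in tumour and 4.004, 5.82 and 4.89 FPKM in WT libraries (log2 change 2.88, SE 0.13, adjusted p = 2.5e-06), and Ptgs2, the inducible one, at 1649.8, 1598 and 1705 against 771, 698 and 436 FPKM (log2 change 1.42, adjusted p = 0.00054). Pla2g4a, the phospholipase that frees arachidonic acid, rose by 0.90 to 4.998 ± 1.32 FPKM (adjusted p = 0.0024). On the leukotriene side, Ltc4s rose as given above and Alox5, the 5-lipoxygenase, rose by 0.36 (adjusted p = 0.011). Alox5ap, the protein that presents arachidonic acid to Alox5, fell by 0.81 from 761, 878 and 846 to 454, 521 and 441 FPKM (adjusted p = 0.00076). Lta4h, which makes leukotriene B4 from the same precursor that Ltc4s uses, did not pass the test at 22.6 ± 1.53 and 22.5 ± 4.05 FPKM (adjusted p = 0.92). Pla2g7, which breaks down platelet-activating factor, lay at 207, 242 and 197 against 582, 601 and 504 FPKM and fell by 1.38, and Hpgd, which inactivates prostaglandins, fell by 1.42 to 2.80 ± 1.13 FPKM (adjusted p = 6.5e-05 and 0.0035). Hpgd averaged 9.39 FPKM in WT neutrophils and 82.1 FPKM in WT unsorted lung cells, and the part of other cells in its fall was not tested.

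Genes of the NF-kappaB pathway, which switches on many of the cytokines above, moved in both directions. Of 19 tested, 6 were higher and 6 lower (median -0.32), against 33.3% and 25.8% over all genes tested. Without WT replicate 5 or WT replicate 6, 3 were lower, and without WT replicate 7, or under upper-quartile scaling, 10 were. The inhibitors and feedback genes Nfkbia, Tnfaip3 and Nfkbid rose: Nfkbia lay at 3648, 4198 and 3499.7 FPKM in tumour and 1829, 1917 and 2039.6 FPKM in WT libraries, Tnfaip3 at 771, 1325 and 915 against 579.9, 554 and 496 FPKM and Nfkbid at 947, 764 and 769 against 485, 498 and 474 FPKM. These rises were 0.97, 0.85 and 0.76 (adjusted p = 0.00059, 0.0053 and 0.0012). Among kinases, Ikbke lay at 47.0, 49.7 and 45.5 against 5.55, 6.64 and 5.78 FPKM and rose by 2.79 (SE 0.11, adjusted p = 7.9e-07), and Map3k8 rose by 1.18 to 48.3 ± 4.57 FPKM (adjusted p = 0.00018). No subunit listed was called higher. Nfkb2 fell by 0.85 from 201 ± 28.5 to 110.2 ± 9.03 FPKM and Relb by 0.55 (adjusted p = 0.00082 and 0.011), while Rela, Rel and Nfkb1 were not called (adjusted p = 0.24, 0.055 and 0.066).

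Immediate early genes, which respond within minutes to receptor signals, moved in both directions. Of 30 tested, 13 were higher and 10 lower (median 0.03), against 33.3% and 25.8% over all genes tested. EGR factors rose: Egr1 lay at 945, 933 and 779 FPKM in tumour and 315, 287 and 276 FPKM in WT libraries, Egr2 at 57.5, 31.8 and 44.2 against 6.71, 6.33 and 7.03 FPKM and Egr3 at 100.5, 34.3 and 56.9 against 16.3, 12.8 and 20.2 FPKM. The changes were 1.59, 2.53 and 1.78 (adjusted p = 3.1e-05, 2.3e-05 and 0.0019). The orphan receptors Nr4a1, Nr4a2 and Nr4a3 rose by 0.87, 1.47 and 0.37 (adjusted p = 0.0014, 0.0001 and 0.027). Zfp36, which marks cytokine mRNAs such as Tnf for decay, lay at 4299.6, 3928 and 3087 against 1009, 1213 and 1059.9 FPKM and rose by 1.78 (adjusted p = 6.5e-05). FOS proteins fell. Fos lay at 338, 369 and 314 against 838, 885 and 616 FPKM, Fosb at 254, 215 and 265 against 916, 1005 and 868 FPKM and Fosl1 at 3.68, 2.99 and 2.97 against 14.6, 16.6 and 18.9 FPKM, falls of 1.18, 1.92 and 2.07 (adjusted p = 0.00038, 1.4e-05 and 1.2e-05). Their dimer partners Jun and Junb rose by 0.66 and 0.70 (adjusted p = 0.0021 and 0.0053). Dusp6, which switches off ERK kinases, fell by 1.77 from 57.3 ± 11.3 to 15.9 ± 0.673 FPKM, whereas Dusp1 overlapped between the groups (adjusted p = 4.4e-05 and 0.92).

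Most secondary granule genes were lower in tumour neutrophils. Of 12 secondary granule genes and their companions tested, 9 were lower and 2 higher, with a median of -1.34. Over all genes tested, 25.8% were lower and 33.3% higher, with a median of 0.11. Without tumour replicate 7 the same numbers were lower and higher. Camp, the antimicrobial cathelicidin (chr9:109847379-109849617, reverse strand), lay at 8.16, 3.84 and 3.57 FPKM in tumour and 93.8, 266 and 229.9 FPKM in WT libraries and fell by 4.94 (SE 0.39, adjusted p = 3e-05). Slpi, an inhibitor of neutrophil proteases, lay at 705, 431 and 623 against 2041, 2517 and 2371 FPKM and fell by 2.0 (adjusted p = 7.8e-05). Pglyrp1, which binds bacterial peptidoglycan, lay at 229.8, 122 and 197 against 533, 641 and 662 FPKM and fell by 1.78 (adjusted p = 0.00024). Anxa1, an anti-inflammatory annexin, fell by 1.55 from 406 ± 89.9 to 136 ± 17.9 FPKM (adjusted p = 0.00017). A pair of further genes showed tumour replicate 7 apart from the other tumour libraries. Mmp8, the neutrophil collagenase, lay at 34.5, 110.3 and 29.1 against 151, 145 and 156 FPKM, and Lcn2, the iron-scavenging lipocalin, at 203, 667 and 179 against 639.5, 645 and 779 FPKM, so that for Lcn2 this library lay within the WT range. Mmp8 fell by 1.62 and Lcn2 by 1.24 (adjusted p = 0.0086 and 0.032). The surface protein Cd177, which pairs with Itgam, went the other way at 76.4, 101.2 and 75.8 against 24.5, 34.0 and 34.3 FPKM, a rise of 1.42 (adjusted p = 0.00019).

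Of 17 genes of the later granules and secretory vesicles, 8 were lower, 2 higher and 7 not called (median -0.36). The shares over all genes tested were 25.8% lower and 33.3% higher. Retnlg, a resistin-like secreted protein, lay at 699, 760.4 and 808 FPKM in tumour and 3788, 3430.5 and 3387 FPKM in WT libraries and fell by 2.23 (SE 0.13, adjusted p = 8e-06). Padi4, the enzyme that citrullinates histones when chromatin is released as extracellular traps, lay at 34.2, 10.97 and 30.0 against 111, 121 and 108 FPKM and fell by 2.28 (adjusted p = 0.00068). Adam8, a membrane metalloprotease of these granules, lay at 309, 248 and 288 against 1273, 1461 and 1074 FPKM and fell by 2.16 (adjusted p = 1.7e-05). Mmp9, gelatinase itself, was not called, at 454, 319 and 372 against 433, 454 and 578 FPKM (adjusted p = 0.096). Of 11 primary granule genes, 6 were tested, since Mpo, Elane, Ctsg, Ms4a3 and Bpi did not reach the filter; 3 were lower and 1 higher. Srgn, serglycin, the proteoglycan that packs granule proteins, was among the most abundant, at 6026, 6144 and 7239 against 12889, 12437 and 10174 FPKM, and fell by 0.87 (adjusted p = 0.003). With no filter on low values, this call was lost (adjusted p = 0.105). Serpinb1a, an inhibitor of neutrophil elastase, fell by 1.16 to 3.07 ± 0.367 FPKM (adjusted p = 0.0003). Prtn3, proteinase 3, was the one that rose, at 1.54, 2.74 and 1.56 FPKM in tumour libraries.

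The NADPH oxidase makes superoxide from a membrane core and cytosolic subunits. The core subunits Cybb and Cyba overlapped between the groups (adjusted p = 0.5 and 0.15). Among the cytosolic subunits, Ncf1 lay at 697, 604 and 585 FPKM in tumour and 434, 406 and 404 FPKM in WT libraries and rose by 0.60 (adjusted p = 0.0028). Ncf4 and the GTPase Rac2 passed the test with falls of 0.46 and 0.41 (adjusted p = 0.019 and 0.026), but under quantile normalization neither did and Rac2 turned to 0.0094. Both calls were also lost on leaving out tumour replicate 8, WT replicate 5 or WT replicate 6, at changes of -0.46, -0.43 and -0.39 for Ncf4 and -0.41, -0.43 and -0.42 for Rac2. The call of Rac2 was lost too without tumour replicate 7 or WT replicate 7, at -0.30 and -0.38.

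Receptors of maturation and egress mark how long a neutrophil has been out of the marrow. Of 17 tested, 8 were lower and 2 higher (median -0.27), against 25.8% and 33.3% over all genes tested. Icam1, which rises on neutrophils that are activated, lay at 602, 558 and 589.5 FPKM in tumour and 117, 109 and 87.8 FPKM in WT libraries and rose by 2.48 (SE 0.13, adjusted p = 5e-06). Cxcr4, which holds neutrophils in the marrow and returns on aged cells, lay at 548, 365 and 431 against 656, 729.5 and 752 FPKM and fell by 0.69 (adjusted p = 0.0059), a call lost under quantile normalization (adjusted p = 0.0775). Csf2ra, the receptor chain for GM-CSF, fell by 1.01 from 665 ± 91.9 to 330.0 ± 43.6 FPKM, and the chain Csf2rb2 rose by 0.61 to 72.2 ± 6.25 FPKM (adjusted p = 0.00066 and 0.0028). Cxcr1, Cd101, a marker of mature cells, and Ptafr overlapped between the groups (adjusted p = 0.87, 0.34 and 0.63). Kit and Cd34, markers of progenitors, stayed at or below 5.75 FPKM in every library.

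Transcription factors of granulocyte development were lower in 13 of 24 tested and higher in 5 (median -0.40). The shares over all genes tested were 25.8% lower and 33.3% higher. Gfi1, needed to form neutrophils, lay at 3.02, 1.41 and 2.31 FPKM in tumour and 4.97, 10.5 and 7.19 FPKM in WT libraries and fell by 1.38 (adjusted p = 0.0019). Cebpa, Cebpb and Cebpd of the C/EBP family fell by 0.68, 0.45 and 0.39 (adjusted p = 0.0011, 0.018 and 0.03), while Cebpe, which drives secondary granule genes, was not called at 4.76 ± 0.202 and 4.34 ± 0.666 FPKM (adjusted p = 0.46). Irf8, of the monocyte and B cell lineages, fell by 1.48 to 2.60 ± 1.36 FPKM (adjusted p = 0.0026). Bhlhe40, a stress-responsive repressor, lay at 524, 498 and 483 against 227, 222 and 207 FPKM and rose by 1.2, and Runx1 rose by 1.03 to 18.8 ± 3.23 FPKM (adjusted p = 5.7e-05 and 0.00054). Fosl2 fell by 0.78 from 507 ± 100.3 to 289.9 ± 9.47 FPKM (adjusted p = 0.0029).

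Interferon-stimulated genes, the antiviral programme switched on through interferon receptors, were mostly lower in tumour neutrophils. Of 28 tested, 21 were lower and 1 was higher (median -0.90), against 25.8% and 33.3% over all genes tested. Without tumour replicate 7, which was lowest for most of them, 19 were lower and 4 higher. The most reduced were Rsad2, or viperin, the exonuclease Isg20, the ubiquitin-like Isg15, the transcription factor Irf7 and the chaperone Rtp4. Rsad2 lay at 29.3, 11.4 and 31.1 FPKM in tumour and 116, 98.7 and 82.7 FPKM in WT libraries, Isg20 at 42.2, 22.6 and 45.9 against 131, 134 and 129 FPKM, and Isg15 at 148, 64.7 and 145 against 413, 461 and 358 FPKM. The groups did not overlap, and the falls were 2.11, 1.87 and 1.86 (SE 0.33, 0.23 and 0.29; adjusted p = 0.00074, 0.00024 and 0.00075). Irf7 lay at 31.7, 19.1 and 39.3 against 106, 106 and 88.5 FPKM and fell by 1.76, and Rtp4 lay at 16.0, 10.1 and 21.7 against 53.6, 50.1 and 50.02 FPKM and fell by 1.68 (adjusted p = 0.00031 and 0.00034). Of the transcription factors that drive them, Irf9 fell by 1.29 and Stat2 rose by 0.81 (adjusted p = 0.00022 and 0.00066). Of the interferon receptors, Ifnar1 fell by 0.53, and Ifnar2 was not called (adjusted p = 0.018 and 0.081).

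Promoters of Isg15, Rsad2 and Irf7, among the most reduced genes, are shown because these genes moved together. Irf9 complexes are also known to bind the interferon-stimulated response element. The sequences are RefSeq promoters on GRCm38.p6, 250 bases before to 50 after the start, written 5′ to 3′ on the gene's own strand, and capitals mark the element, searched as the letters GAAA, then 2 bases of any kind, then GAAA, or its reverse complement. Isg15 (chr4:156200769-156201068, reverse strand) held 3 overlapping matches, Rsad2 (chr12:26456403-26456702, reverse strand) held 1 on the opposite strand, and Irf7 (chr7:141266375-141266674, reverse strand) held 0.
Isg15: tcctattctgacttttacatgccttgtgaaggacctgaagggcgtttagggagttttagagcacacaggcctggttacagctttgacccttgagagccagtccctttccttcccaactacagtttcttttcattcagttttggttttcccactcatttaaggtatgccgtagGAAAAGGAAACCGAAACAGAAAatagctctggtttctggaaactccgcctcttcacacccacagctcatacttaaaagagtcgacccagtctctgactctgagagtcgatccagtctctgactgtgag
Rsad2: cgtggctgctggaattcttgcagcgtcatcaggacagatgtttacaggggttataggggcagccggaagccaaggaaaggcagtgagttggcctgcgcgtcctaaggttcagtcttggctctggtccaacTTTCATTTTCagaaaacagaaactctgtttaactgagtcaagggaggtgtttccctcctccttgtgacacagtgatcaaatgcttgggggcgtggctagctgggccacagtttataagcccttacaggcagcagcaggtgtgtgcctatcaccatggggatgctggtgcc
Irf7: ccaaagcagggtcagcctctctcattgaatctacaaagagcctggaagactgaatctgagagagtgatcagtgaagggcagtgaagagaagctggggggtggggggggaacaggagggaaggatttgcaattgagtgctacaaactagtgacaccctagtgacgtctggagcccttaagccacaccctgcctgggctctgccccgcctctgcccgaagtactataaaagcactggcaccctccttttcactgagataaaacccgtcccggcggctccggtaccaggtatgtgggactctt
The motif was found, on either strand, in 12 of the 22 listed genes with a promoter in the table. Among them were 7 of 17 that were lower and the one that was higher, Stat2. All those not called, Ddx58, Ifih1, Gbp3 and Bst2, held it too. Isg20, among the most reduced but not shown, did not hold it. The motif was found in 3.81% of the 7169 genes tested that had a promoter and in 3.44% of all 32851 promoters. A match describes these letters in this window.

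Antigen presentation genes were mostly lower. All 9 genes of MHC class II tested were lower (median -1.02), against 25.8% lower and 33.3% higher over all genes tested. However, 5 were called lower without tumour replicate 7, 5 without tumour replicate 8 and 4 without WT replicate 7. H2-Ob, of the peptide exchange complex in B cells, lay at 5.93, 2.01 and 4.03 FPKM in tumour and 17.1, 14.5 and 24.2 FPKM in WT libraries and fell by 2.03 (adjusted p = 0.00053). H2-Aa, a chain of the presenting molecule, lay at 107, 45.0 and 75.7 against 138, 129 and 182 FPKM, and its invariant chain Cd74 at 349, 149 and 248 against 451, 381 and 637 FPKM, falls of 1.04 and 1.03 (adjusted p = 0.011 and 0.016). Under quantile normalization both calls were lost (adjusted p = 0.0528 and 0.12), and that of Cd74 also without WT replicate 7 (adjusted p = 0.0547). Tumour replicate 7 was lowest for these 3 genes, as it was for the B cell markers, whose sums were given above, and the part of B cells in these falls was not tested. The dendritic cell markers summed to 20.1 to 30.5 FPKM in tumour and 33.5 to 69.3 FPKM in WT libraries. Of 12 genes of the class I pathway, 7 were lower and 3 higher (median -0.51), and 1 was higher without tumour replicate 6 or tumour replicate 8. B2m, the light chain of class I molecules, lay at 1602, 1010.2 and 1622 against 2548, 2544 and 2084 FPKM and fell by 0.79 (adjusted p = 0.0097). Nlrc5, the activator of class I genes, fell by 0.99 to 4.61 ± 1.16 FPKM (adjusted p = 0.0026). It averaged 10.1 FPKM in WT neutrophils and 23.1 FPKM in WT unsorted lung cells, and the part of other cells was not tested. Psmb10, a subunit of the immunoproteasome, rose by 1.12 from 9.73 ± 0.262 to 22.9 ± 5.95 FPKM (adjusted p = 0.00095), while Psmb8 was not called and Psmb9 fell by 0.49 (adjusted p = 0.45 and 0.023). H2-Q10 and H2-T23 fell by 1.14 and 1.03, but class I genes have near-identical copies, and how the authors' counting divided reads among them was not given in the sources used here. The same holds for Bcl2a1d, Serpinb1a and the Ifitm and Oas families.

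**Figure D4:**
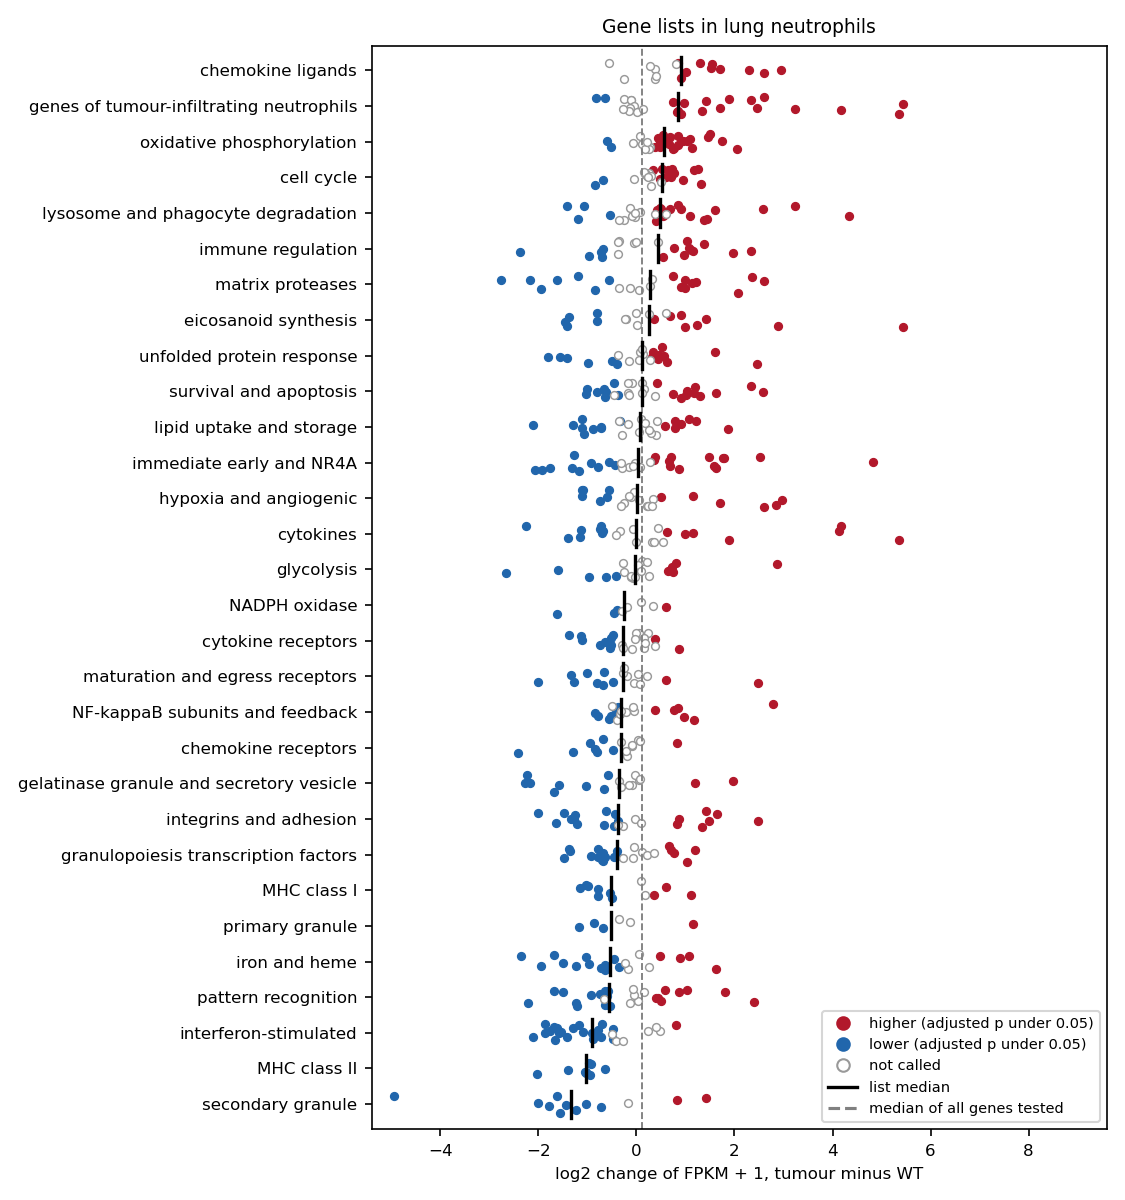
Change of every member tested of 30 gene lists (log2 of FPKM + 1, tumour minus WT), 1 point a gene, with genes at 0 in a whole group left out. Red points were higher, blue points lower and open points not called at an adjusted p under 0.05; black bars are list medians, and the dashed line is the median of all genes tested, 0.11. Lists run from chemokine ligands at the top to secondary granule genes at the bottom.

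Hypoxia-responsive and angiogenic genes did not move as a body. Of 22 tested, 6 were higher and 6 lower (median 0.00), against 33.3% and 25.8% over all genes tested. Without WT replicate 5, 3 were lower. Egln3, an oxygen-sensing prolyl hydroxylase, lay at 97.2, 50.7 and 106 FPKM in tumour and 10.9, 10.6 and 7.38 FPKM in WT libraries and rose by 2.96 (SE 0.27, adjusted p = 5.6e-05); its tumour neutrophil mean was 5730% of the tumour macrophage mean. Hbegf, an epidermal growth factor receptor ligand, lay at 43.5, 29.8 and 46.8 against 4.21, 5.91 and 3.96 FPKM and rose by 2.84 (adjusted p = 1.5e-05). Plau, the urokinase plasminogen activator, lay at 87.3, 65.8 and 88.9 against 11.6, 13.6 and 11.9 FPKM and rose by 2.60, while its receptor Plaur fell by 0.56 from 2247 ± 359.9 to 1523 ± 249 FPKM (adjusted p = 5e-06 and 0.023). Mif, a cytokine and tautomerase, rose by 1.71 to 50.1 ± 8.85 FPKM and P4ha1, a collagen prolyl hydroxylase, by 1.15 to 17.8 ± 6.12 FPKM (adjusted p = 7.7e-05 and 0.0031). Vegfa, the main angiogenic factor, was abundant in both groups at 542, 394 and 434 and 520.2, 596 and 373 FPKM and was not called, and neither was Hif1a (adjusted p = 0.65 and 0.16). Hilpda and Ndrg1, also known targets of hypoxia, fell by 1.11 and 1.08 (adjusted p = 0.00024 and 0.0016).

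Glycolysis genes went both ways too, with 5 of 21 genes higher, 5 lower and 11 not called (median -0.03). The shares over all genes tested were 33.3% higher and 25.8% lower. With tumour replicate 6 or tumour replicate 8 left out, 3 glycolysis genes were higher. Hk2, the inducible hexokinase of the first step, lay at 53.6, 33.6 and 54.0 FPKM in tumour and 4.72, 6.59 and 5.20 FPKM in WT libraries and rose by 2.86 (SE 0.20, adjusted p = 1.5e-05). Hk3, the hexokinase of myeloid cells, fell by 0.63 to 51.0 ± 11.3 FPKM (adjusted p = 0.0083). Slc2a3, a glucose importer, lay at 64.8, 43.7 and 57.6 against 356, 383 and 321 FPKM and fell by 2.67 (SE 0.16, adjusted p = 7.6e-06), while the importer Slc2a1 overlapped between the groups (adjusted p = 0.28). Slc16a3, the lactate exporter, lay at 293, 171 and 215 against 648, 683 and 697 FPKM and fell by 1.61, and Gpi1, the second enzyme of the pathway, fell by 0.97 (adjusted p = 0.00017 and 0.0002). In the middle and late steps, Tpi1, Eno1 and Aldoa rose by 0.82, 0.72 and 0.64 (adjusted p = 0.0014, 0.0046 and 0.018), and Gapdh, Pgk1, Pkm and Ldha were not called.

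Promoters of Hk2, Egln3 and Slc16a3 are shown because these known targets of hypoxia-inducible factor moved in opposite directions while sharing its core letters, ACGTG, which capitals mark on either strand. Hk2 (chr6:82774405-82774704, reverse strand) held 2 matches, Egln3 (chr12:54203825-54204124, reverse strand) held 1 and Slc16a3 (chr11:120948817-120949116, forward strand) held 2.
Hk2: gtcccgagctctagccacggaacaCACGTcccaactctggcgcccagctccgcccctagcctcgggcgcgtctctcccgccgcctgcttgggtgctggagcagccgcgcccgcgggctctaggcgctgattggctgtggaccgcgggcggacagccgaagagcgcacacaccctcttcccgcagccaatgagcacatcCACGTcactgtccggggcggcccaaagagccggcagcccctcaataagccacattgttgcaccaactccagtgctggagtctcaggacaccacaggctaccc
Egln3: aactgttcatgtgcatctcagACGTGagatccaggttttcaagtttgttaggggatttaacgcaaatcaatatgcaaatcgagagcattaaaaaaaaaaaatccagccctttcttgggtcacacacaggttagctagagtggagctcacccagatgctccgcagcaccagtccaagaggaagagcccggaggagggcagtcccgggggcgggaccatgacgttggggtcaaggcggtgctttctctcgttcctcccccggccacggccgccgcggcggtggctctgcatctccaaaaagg
Slc16a3: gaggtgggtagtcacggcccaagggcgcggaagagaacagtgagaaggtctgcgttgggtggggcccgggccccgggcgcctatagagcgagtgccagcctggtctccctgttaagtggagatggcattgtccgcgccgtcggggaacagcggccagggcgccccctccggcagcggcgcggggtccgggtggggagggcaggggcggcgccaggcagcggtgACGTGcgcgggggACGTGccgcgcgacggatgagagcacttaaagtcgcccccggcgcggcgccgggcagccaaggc
Of the hypoxia list, 11 of 14 genes with a promoter in the table held the letters, and of the glycolysis list 13 of 20 did, against 30.3% of the genes tested and 19.6% of all promoters. Among hypoxia genes the letters were found in 3 of 3 that were higher and 2 of 5 that were lower. Among glycolysis genes they were found in 3 of 5 that were higher and 2 of 4 that were lower. A motif this short is found in many promoters, and the difference between these shares was not tested.

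Genes of oxidative phosphorylation, the mitochondrial respiratory chain and ATP synthase, were mostly higher. Of 30 tested, 21 were higher and 2 lower (median 0.55), against 33.3% and 25.8% over all genes tested. Ndufc1, of complex I, lay at 30.3, 22.7 and 32.3 FPKM in tumour and 3.61, 6.91 and 8.31 FPKM in WT libraries and rose by 2.06 (SE 0.25, adjusted p = 0.00022). Atp5g1, of ATP synthase, lay at 35.3, 27.2 and 36.6 against 10.5, 8.22 and 8.67 FPKM and Cox7b, of complex IV, at 30.8, 25.6 and 34.2 against 11.4, 8.28 and 10.7 FPKM, rises of 1.74 and 1.49 (adjusted p = 3.9e-05 and 9.4e-05). Uqcrb, Uqcrc1 and Uqcrc2, of complex III, rose by 1.14, 1.04 and 0.94 (adjusted p = 0.0015, 0.00034 and 0.00031). Complex II was mixed, with Sdhc up by 0.85, Sdhd down by 0.61, and Sdha and Sdhb not called (adjusted p = 0.00067, 0.0012, 0.073 and 0.14).

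In the unfolded protein response, which eases the load on the endoplasmic reticulum, 9 of 22 genes were higher and 6 lower (median 0.12). The shares over all genes tested were 33.3% higher and 25.8% lower. Xbp1, the factor of the Ire1 branch, lay at 323, 213 and 349 FPKM in tumour and 58.5, 46.9 and 50.7 FPKM in WT libraries and rose by 2.46 (SE 0.19, adjusted p = 2.4e-05). Sdf2l1, Pdia4 and Manf, which help proteins fold, rose by 1.61, 0.61 and 0.55 (adjusted p = 0.00051, 0.0024 and 0.0066). Herpud1, of the degradation pathway, lay at 26.5, 22.1 and 29.0 against 86.0, 104 and 89.3 FPKM and fell by 1.81, and Selk, a selenoprotein of the same membrane, fell by 1.55 (adjusted p = 2e-05 and 3e-05). Of the Perk and Atf4 branch, Ddit3, or CHOP, fell by 0.98 and Sesn2 by 1.41 (adjusted p = 0.0008 and 1.9e-05), while Atf4 itself was not called (adjusted p = 0.4). Hspa5, the main chaperone, fell by 0.51 from 713 ± 82.5 to 501 ± 47.4 FPKM (adjusted p = 0.012).

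Lysosomal genes were higher in 16 of 29 and lower in 4 (median 0.47), against 33.3% and 25.8% over all genes tested. Gpnmb, a glycoprotein of phagocytes with full lysosomes, lay at 14.5, 19.5 and 14.1 FPKM in tumour and 0.733, 0.979 and 0.683 FPKM in WT libraries and rose by 3.23 (SE 0.15, adjusted p = 2.7e-06). Ctss, cathepsin S, lay at 182, 186 and 162 against 54.1, 60.1 and 59.4 FPKM and rose by 1.59, and Grn, progranulin, rose by 1.45 to 99.6 ± 21.9 FPKM (adjusted p = 1.5e-05 and 0.00021). Atp6v0d2, a proton pump subunit of macrophages, rose by 2.58 to 6.17 ± 0.932 FPKM (adjusted p = 8.2e-06). Its common counterpart Atp6v0d1 went the other way and fell by 1.43 from 259 ± 48.9 to 94.5 ± 2.17 FPKM (adjusted p = 9.3e-05). Ctsd, cathepsin D, fell by 1.07 from 823 ± 114 to 393 ± 66.3 FPKM and Lamp2 by 1.2 (adjusted p = 0.00067 and 4.7e-05). Gpnmb, Atp6v0d2 and Ctss in tumour neutrophils stood at 1.17%, 1.82% and 2.58% of their tumour macrophage means, against the median of 2.44% over the 17 macrophage markers given above. The 18 monocyte and macrophage markers measured summed to 473 to 614 FPKM in tumour and 298 to 415 FPKM in WT neutrophil libraries, of which Apoe made up 136 to 228 and 77.6 to 144 FPKM. Without Apoe, which was listed at 0 in tumour macrophages, the other 17 summed to 284 to 412 and 220.5 to 271 FPKM, and to a mean of 7007 FPKM in tumour macrophages. The 12 alveolar macrophage markers summed to 184 to 285 and 81.3 to 102 FPKM, but most of this was Itgax, and without Itgax and Car4 the other 10 summed to 27.2 to 39.9 and 14.5 to 26.0 FPKM. Fabp1, Krt79 and Cidec were below 1 FPKM in all 6 libraries, but averaged only 4.08, 3.20 and 1.87 FPKM in tumour macrophages. Their level therefore cannot measure RNA of tumour macrophages. Of the others, Itgax, Car4, Atp6v0d2, Ctsk and Marco were higher in every tumour library, and Fabp4, Mrc1, Abcg1 and Pparg overlapped between the groups. The part of macrophage RNA in the rises of Gpnmb, Atp6v0d2 and Ctss was not tested.

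Lipid genes had no common direction, with 7 of 26 higher and 9 lower (median 0.07), against 33.3% and 25.8% over all genes tested. Olr1, the LOX-1 receptor for oxidised lipoprotein, lay at 99.1, 105 and 109.9 FPKM in tumour and 32.6, 26.2 and 25.3 FPKM in WT libraries and rose by 1.87 (SE 0.12, adjusted p = 1.3e-05). Plin3, a coat protein of lipid droplets, rose by 1.21 to 12.9 ± 1.28 FPKM (adjusted p = 6.9e-05). Dgat1, the last enzyme of triglyceride synthesis, lay at 519.7, 499 and 555 against 1292, 1389 and 1193 FPKM and fell by 1.30, and the fatty acid importer Slc27a4 fell by 1.11 from 88.7 ± 6.27 to 40.5 ± 2.19 FPKM (adjusted p = 7e-05 and 7.1e-05). Cd36, a scavenger receptor that endothelium also expresses, fell by 2.12 to 2.69 ± 0.957 FPKM (adjusted p = 9.7e-05), with the endothelial marker sums given above.

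Iron and redox genes were lower in 12 of 20 and higher in 4 (median -0.55), against 25.8% and 33.3% over all genes tested. Slc40a1, ferroportin, the iron exporter, lay at 14.9, 14.2 and 14.1 FPKM in tumour and 76.6, 102 and 59.98 FPKM in WT libraries and fell by 2.35 (SE 0.18, adjusted p = 2.2e-05). Slc11a1, the metal transporter Nramp1 of phagosomes, lay at 226, 153 and 212 against 589, 715 and 584 FPKM and fell by 1.68 (adjusted p = 8.7e-05). Targets of the oxidant sensor Nrf2 were divided. Srxn1, sulfiredoxin, and Slc7a11, the cystine importer, fell by 1.94 and 1.5, and Nfe2l2, the gene of Nrf2 itself, by 0.64 (adjusted p = 0.00011, 0.00017 and 0.012). Prdx1, a peroxiredoxin, and Gclm, of glutathione synthesis, rose by 1.62 and 0.89 (adjusted p = 0.00034 and 0.0071), and Hmox1 was not called (adjusted p = 0.72). Prdx1 in tumour neutrophils stood at 5.32% of its tumour macrophage mean, and the part of macrophage RNA in its rise was not tested.

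Of 28 survival and death genes, 11 were higher and 8 lower (median 0.11), against 33.3% higher, 25.8% lower and a median of 0.11 over all genes tested. Of the protective genes, Bcl2a1d, a Bcl-2 relative of neutrophils, lay at 92.0, 90.8 and 118 FPKM in tumour and 20.2, 15.1 and 12.7 FPKM in WT libraries, Cflar, which blocks caspase 8, at 58.0, 87.2 and 66.5 against 13.1, 13.2 and 12.8 FPKM, and Bcl2l1, or Bcl-xL, at 100.8, 127 and 107 against 35.5, 38.2 and 32.1 FPKM. They rose by 2.59, 2.33 and 1.63 (SE 0.18, 0.15 and 0.12; adjusted p = 1.5e-05, 1.2e-05 and 2.5e-05). Mcl1, on which neutrophils depend, was abundant and not called at 997, 1135 and 1059 and 968, 1059.9 and 933 FPKM (adjusted p = 0.48). Among promoters of death, Bax, Bak1 and Casp8 rose by 1.30, 0.91 and 1.19, while Bcl2l11, or Bim, and Bid fell by 1.01 and 0.80 (adjusted p = 8.1e-05, 0.00041, 7.8e-05, 0.00012 and 0.004). Trp53 rose by 0.75 and its target Cdkn1a, the p21 inhibitor, by 1.17 to 592 ± 24.4 FPKM (adjusted p = 0.0004 and 0.0016).

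Genes that restrain other immune cells were higher in 10 of 21 and lower in 5 (median 0.43), against 33.3% and 25.8% over all genes tested. Havcr2, or Tim-3, lay at 42.2, 55.8 and 50.2 FPKM in tumour and 11.1, 8.88 and 7.27 FPKM in WT libraries and rose by 2.33 (SE 0.16, adjusted p = 1.6e-05). Cd47, the signal against being engulfed, lay at 84.4, 109.7 and 88.1 against 36.0, 34.4 and 35.1 FPKM and rose by 1.39, as did its receptor Sirpa by 0.54 (adjusted p = 5.1e-05 and 0.013). The enzymes that make adenosine from ATP went opposite ways: Entpd1, or CD39, which acts first, lay at 126, 85.1 and 142 against 679, 650.2 and 502 FPKM and fell by 2.38, and Nt5e, or CD73, which acts next, lay at 40.4, 46.8 and 36.0 against 23.1, 18.6 and 15.7 FPKM and rose by 1.07 (adjusted p = 4.3e-05 and 0.00056). The arginases did so too: Arg1 lay at 8.43, 3.36 and 2.13 against 0.0851, 0.399 and 0.406 FPKM and rose by 1.97, and the more abundant Arg2 fell by 0.71 from 338 ± 44.6 to 205 ± 20.7 FPKM (adjusted p = 0.0015 and 0.0023). Cd274, or PD-L1, was not called at 326, 204 and 298 and 289.8, 310.1 and 245 FPKM (adjusted p = 0.83), nor was Pdcd1lg2 (adjusted p = 0.97). Lgals1, galectin-1, rose by 1.12 and Lgals9 fell by 0.68 (adjusted p = 0.0035 and 0.0016). Lgals1 in tumour neutrophils stood at 4.78% of its tumour macrophage mean, and the part of macrophage RNA in its rise was not tested.

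A list of genes reported from neutrophils inside tumours overlapped several of the above. Of 27 tested, 16 were higher and 2 lower (median 0.85), against 33.3% and 25.8% over all genes tested. Members not yet described were Itgax, the CD11c integrin chain, which lay at 207, 129 and 212 FPKM in tumour and 70.8, 78.1 and 62.4 FPKM in WT libraries and rose by 1.33, and Cd63, a granule membrane protein, which rose by 0.92 from 192 ± 41.6 to 358 ± 16.4 FPKM (adjusted p = 0.00054 and 0.0016). Ctsb and Fnip2 rose by 0.85 and 0.96 (adjusted p = 0.00053 and 0.00054). Spp1, osteopontin, Fcer1g and Cstb were not called (adjusted p = 0.51, 0.97 and 0.42). The list was drawn up with results of these data known, so its direction is not independent evidence. Siglecf, a marker used for such cells, was not analysed here.

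Pattern recognition genes were lower in 14 of 28 and higher in 8 (median -0.55), against 25.8% and 33.3% over all genes tested. C-type lectins went both ways. Clec4n, or Dectin-2, lay at 699.8, 484 and 819 FPKM in tumour and 138, 114 and 119.7 FPKM in WT libraries and rose by 2.39 (SE 0.19, adjusted p = 3e-05), and Clec4e, or Mincle, rose by 0.51 to 1484 ± 182 FPKM (adjusted p = 0.012). Clec4d lay at 745, 784 and 928 against 2738, 2812 and 2329.8 FPKM and fell by 1.68, and Clec7a, or Dectin-1, fell by 0.93 (adjusted p = 4.8e-05 and 0.017). Clec5a, a receptor that signals through Tyrobp, rose by 1.81 to 97.1 ± 14.8 FPKM, while Tyrobp itself fell by 0.75 and Trem1, another receptor of the same kind, by 1.22 (adjusted p = 2.7e-05, 0.0045 and 8.1e-05). Among Toll-like receptors, Tlr4 and its adaptor Myd88 rose by 0.87 and 0.58. Its partners Cd14 and Ly96 fell by 0.57 and 0.64 (adjusted p = 0.0014, 0.0018, 0.031 and 0.014). Tlr2, Tlr1 and Tlr6, which pair to sense lipoproteins, all fell. Tlr6 lay at 22.4, 27.6 and 25.0 against 111, 133 and 113 FPKM, a fall of 2.20, and Tlr1 and Tlr2 fell by 1.49 and 0.64 (adjusted p = 5.7e-06, 0.0022 and 0.0069). Nlrp3, the inflammasome sensor, was abundant and not called, at 1013, 1305 and 1158 and 1257, 1276 and 1091 FPKM (adjusted p = 0.72).

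Integrins and adhesion molecules went both ways. Of 23 tested, 7 were higher and 12 lower (median -0.39), against 33.3% and 25.8% over all genes tested. Itga5 and Itgb1, which pair as the fibronectin receptor, rose by 1.64 and 0.86, with Itga5 at 33.1, 35.8 and 36.6 FPKM in tumour and 13.5, 10.1 and 8.60 FPKM in WT libraries (adjusted p = 6.5e-05 and 0.0016). The leukocyte chain Itgb2 and its partner Itgal fell by 0.67 and 1.27, with Itgal at 116, 60.3 and 95.9 against 208, 227 and 204 FPKM (adjusted p = 0.0039 and 0.0011), while its partner Itgax rose and Itgam was not called, as given above. Itga4 fell by 1.34 and Itgb7 by 1.65 (adjusted p = 6.5e-05 and 0.00074). These genes averaged 41.0 and 22.9 FPKM in WT neutrophils and 59.7 and 103 FPKM in WT unsorted lung cells. The part of other cells in their falls was not tested. Cd44, the hyaluronan receptor, fell by 1.25 from 781 ± 69.4 to 331 ± 67.2 FPKM (adjusted p = 0.00037).

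Proteases that act on the extracellular matrix were higher in 9 of 21 and lower in 7 (median 0.27). The shares over all genes tested were 33.3% higher and 25.8% lower. Mmp14, which is anchored in the membrane, lay at 18.5, 17.1 and 14.4 FPKM in tumour and 3.20, 2.77 and 1.53 FPKM in WT libraries and rose by 2.36 (SE 0.19, adjusted p = 3.6e-05). Mmp19 rose by 2.07 to 5.68 ± 2.55 FPKM, and the sheddases Adam10 and Adam17, the second of which releases Tnf from the membrane, rose by 0.99 and 0.74 (adjusted p = 0.00016, 0.00036 and 0.0027). Mmp19 in tumour neutrophils stood at 3.86% of its tumour macrophage mean, and the part of macrophage RNA in its rise was not tested. The inhibitors Timp2 and Timp3 fell by 1.19 and 2.75, and Timp3 lay at 0.601, 0.562 and 1.28 against 10.7, 11.1 and 11.4 FPKM (adjusted p = 0.00017 and 7.9e-06). Endothelial and fibroblast cells also express Timp3; the 12 fibroblast markers summed to 68.0 to 178 FPKM in tumour and 200.1 to 393 FPKM in WT libraries, and their part was not tested.

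Of 39 cell cycle genes in the table, 28 passed the filter, 16 of them higher and 2 lower (median 0.51). The shares over all genes tested were 33.3% higher and 25.8% lower. The higher ones included the inhibitor Cdkn1a, given above. Leaving out tumour replicate 6, tumour replicate 8, WT replicate 5 or WT replicate 6 left 1 lower. Mcm4 and Mcm5, of the helicase that opens DNA for copying, lay at 5.86 ± 0.843 and 3.42 ± 0.247 FPKM in tumour and at 3.14 ± 0.430 and 0.899 ± 0.502 FPKM in WT libraries, rises of 0.73 and 1.25 (adjusted p = 0.0022 and 0.00058). Birc5, survivin, rose by 1.32 to 2.67 ± 0.401 FPKM and Cdk2 by 0.61 to 6.99 ± 0.917 FPKM (adjusted p = 0.0007 and 0.006). Mki67 overlapped between the groups at 8.18, 10.5 and 8.77 and 9.98, 9.57 and 8.98 FPKM (adjusted p = 0.72). Ccnd3 fell by 0.84 from 84.0 ± 7.40 to 48.0 ± 16.1 FPKM (adjusted p = 0.0068). Pcna passed at 0.34 (adjusted p = 0.049), but with overlapping groups, and the call was lost under upper-quartile scaling (adjusted p = 0.105) and without tumour replicate 6 (0.116), tumour replicate 8 (0.149), WT replicate 5 (0.135) or WT replicate 7 (0.13). The 9 epithelial tumour markers, which the injected cells could carry, summed to 52.6 to 63.3 FPKM in tumour and 12.3 to 22.96 FPKM in WT libraries, and their part in the cell cycle genes was not tested.

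Whether the effect of the tumour differed between cell types was tested as a difference of differences against macrophages and monocytes, which the labels do not tie to the same animals. Against macrophages, the neutrophil effect was higher for 3073 of 10669 genes (28.8%) and lower for 2554 (23.9%). Tumour macrophages were sorted as CD11b+ and WT macrophages as CD11b- cells, so this contrast holds the gate as well. Against monocytes, with 2 libraries in each of the 2 monocyte groups, it was higher for 1107 of 10738 genes (10.3%) and lower for 914 (8.51%). Without tumour neutrophil replicate 6, tumour neutrophil replicate 8 or tumour monocyte replicate 4, the number higher against monocytes was 636, 677 and 662. Ltc4s led both. It averaged 145 FPKM in tumour and 2.41 FPKM in WT neutrophils, 33.5 and 265 FPKM in macrophages, and 8.12 and 2.88 FPKM in monocytes, and the neutrophil effect was larger by 8.41 than that in macrophages (SE 0.30, adjusted p = 5.2e-09) and by 4.47 than that in monocytes (SE 0.76, adjusted p = 0.0046). Rsad2 went the opposite way against macrophages, averaging 23.9 and 99.2 FPKM in tumour and WT neutrophils and 83.6 and 0.219 FPKM in macrophages, a difference of -8.21 (SE 0.45, adjusted p = 1.2e-07). Isg15 averaged 119 and 411 FPKM in neutrophils and 310.5 and 8.77 FPKM in macrophages, a difference of -6.88 (SE 0.40, adjusted p = 2.2e-07). Spp1 averaged 251 and 275 FPKM in neutrophils and 905 and 23.6 FPKM in monocytes, a difference of -4.95 (SE 0.75, adjusted p = 0.0031).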

How the data were processed

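RNA was measured in sorted lung cells of C57BL/6 mice. Cells of perfused, dissociated lungs were sorted, RNA was extracted with PicoPure and libraries were made with TruSeq v2, per the labels' protocols. The authors deposited FPKM values, 1 column per library, in a table of mouse genes paired with human symbols. The submitters' processing notes name CASAVA 1.8.2, TopHat2, Cufflinks, Cuffdiff and the build mm10 (GRCm38). FPKM tables hold no counts, so depth is unknown beyond the rough ratios given, and no counting interval is printed. The file held 0 columns without a sample.

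From the deposited FPKM, log2(FPKM + 1) was computed for genes that reached 1 FPKM in 2 or more of the libraries fitted. Tumour and WT neutrophils, 3 libraries each, were fitted with limma 3.58.1 in R 4.3.3 (empirical Bayes with a trend), with Benjamini-Hochberg adjustment of p over the genes tested. Differences between cell types were interaction terms of the same kind of fit. Python 3.11.15, pandas 2.3.3, numpy 2.4.6 and matplotlib 3.10.9 were used for levels and plots. Gene positions are those of GENCODE M21 on GRCm38.

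Members, gene lists and tests were chosen with earlier results of these data known. Genes named were the 14 largest called rises and falls without overlap whose higher group mean was at least 10 FPKM, the 5 largest called members of each of 30 lists at 5 FPKM or more, sort and lineage checks, other list members by role, and the 5 largest interaction differences each way at 10 FPKM or more. Genes at 0 in a library, predicted genes, small RNAs, olfactory receptors, pseudogenes, histone clusters and receptor segments were left out of the largest changes. A few genes that these rules name are not reported here. Marker lists of 16 cell types were summed per library. The fits were tested on simulated data in which 200 genes rose by 1 or 2 on the log2 scale and no others changed with the tumour, unlike the measured data. For the neutrophil comparison, 83% of rises of 1 and 96% of rises of 2 were recovered. For the difference from macrophages these shares were 55% and 87%, and for that from monocytes 53% and 93%. For the neutrophil comparison, 17 other settings changed the pseudocount, the filter, the scaling, the libraries or genes fitted, the empirical Bayes step or the replicate block, and their effects stand in the closing section.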

Additional observations from a re-analysis of the deposited data

Results flagged for a closer look

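Against macrophages, the neutrophil effect of the tumour was higher for 28.8% and lower for 23.9% of 10669 genes. Against monocytes it was higher for 10.3% and lower for 8.51% of 10738 genes. The 19 gene and cell type pairs given here come from the 5 largest differences each way. The labels do not tie these libraries to the same animals. Each difference was tested as an interaction by limma, and each is the neutrophil log2 change minus the other. Ltc4s, given above, differed by 8.41 from macrophages (5.44 in neutrophils and -2.97 in macrophages) and by 4.47 from monocytes (0.97). Car4, a membrane carbonic anhydrase, averaged 36.9 FPKM in tumour and 2.43 FPKM in WT neutrophils, 14.5 and 325 FPKM in macrophages and 9.46 and 14.6 FPKM in monocytes, so that the differences were 8.01 and 4.12. Krt19, an epithelial keratin, rose by 2.53 in neutrophils and changed by -5.15 in macrophages, a difference of 7.68. The 9 epithelial tumour markers also summed higher in tumour neutrophil libraries, and their part was not tested. Ffar2 differed by 5.28 (4.19 and -1.09). Gal, encoding the neuropeptide galanin, differed by 5.11, but its change in neutrophils was -0.37 at means under 1 FPKM, and macrophages gave -5.48.

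Among the differences below 0 against macrophages were the interferon-stimulated genes Rsad2 at -8.21 (-2.11 in neutrophils and 6.10 in macrophages), Ifit1 at -6.91 (-1.16 and 5.75) and Isg15 at -6.88 (-1.86 and 5.02). Pla2g7 averaged 215 FPKM in tumour and 562 FPKM in WT neutrophils and 217 and 1.67 FPKM in macrophages, a difference of -7.83. Slc11a1 averaged 197 and 629 FPKM in neutrophils and 163 and 2.15 FPKM in macrophages, a difference of -7.37. Tumour and WT macrophages were sorted by opposite CD11b gates, so the gate and the tumour cannot be told apart in these differences.

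Against monocytes, with 2 libraries in each group, Ms4a6d differed by 3.69 (4.95 in neutrophils and 1.25 in monocytes) and Rgs10 by 3.61 (3.94 and 0.33). Both were already high in WT monocytes, at 60.7 and 79.7 FPKM. Spp1 differed by -4.95 (-0.13 and 4.82), Pdpn, or podoplanin, by -4.49 (-1.11 and 3.38) and Mmp12, the macrophage elastase, by -3.61 (0.90 and 4.51). Slc15a3, a lysosomal peptide transporter, averaged 281 FPKM in tumour and 1105 FPKM in WT neutrophils and 135 and 42.8 FPKM in monocytes, a difference of -3.54. Tmem132a differed by -3.53 (-1.85 and 1.67).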

How the results depend on the processing

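Limits of the comparison were 3 libraries a group, an unknown depth, values without counts and a table in which some abundant genes were listed at 0. Replicate numbers 6 and 7 stood in both groups but did not pair the libraries (correlation of deviations -0.0194 and -0.17). With the number as a replicate block, 1904 genes were higher and 1660 lower, and 150 of 154 named genes kept their call; those of Ncf4, Rac2, Cd74 and Pcna were lost. Of the lists, the block moved oxidative phosphorylation from 21 to 13 higher, the unfolded protein response from 9 to 3, glycolysis from 5 to 2, pattern recognition from 8 to 4 and MHC class I from 3 to 1, and cytokine receptors from 10 to 5 lower, MHC class II from 9 to 4 and NF-kappaB from 6 to 3. Libraries whose number stood in only 1 group do not inform the contrast under the block, which rests on replicates 6 and 7 of each group. The block also leaves fewer residual degrees of freedom.

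Testing only the genes highest in neutrophils, added after seeing the data, gave 259 higher and 919 lower of 1600. A gene could enter through the group where it was high, so the change helps to decide membership, and nothing is read from these counts. Under upper-quartile scaling 2691 were higher and 2704 lower. With no filter 14704 genes gave 3200 and 2833, and with a filter of 5 FPKM 5967 genes gave 2129 and 1712. Leaving out 1 library gave 2542 to 2988 higher and 2096 to 2296 lower. For the difference from macrophages this gave 2346 to 3109 higher and 2099 to 2600 lower, and for that from monocytes 636 to 1032 higher, with 636, 677 and 662 without tumour neutrophil replicate 6, tumour neutrophil replicate 8 and tumour monocyte replicate 4, and 621 to 929 lower. Rac2 turned from -0.41 to 0.0094 under quantile normalization (limma, adjusted p = 0.948), where the calls of Ncf4, Cxcr4, H2-Aa and Cd74 were lost. Those of Ncf4, Rac2, Ccr1 and Pcna were lost with all 10 groups fitted together, and that of Srgn with no filter. Both neutrophil counts stayed within 1.5 times under the other settings tried on all genes: both pseudocounts, quantile normalization, all 10 groups together, robust empirical Bayes, and leaving out genes at 0 in a library or 20 times higher in another sorted population. Where values moved, the cause was not tested.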
